A study of Mus musculus with 26 samples.

Results

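The genes described here encode the chains of the integrins and of the laminins, and they were taken from the count table by symbol. The rule takes every integrin alpha symbol (18 genes), every integrin beta symbol (8 genes) and every laminin alpha, beta or gamma symbol (11 genes), which makes 37 of the 55391 genes in the table, and 36 of them are described here. RNA sequencing measured them in EA1, EA2 and EA3, which are 3 lines of cancer cells from the lungs of C57BL/6 mice that carry the EML4-ALK fusion. Each line was cultured with 0.1% DMSO, the solvent, or with 100 nM alectinib, an inhibitor of ALK, and 1 library was made on each of the days 1, 2, 3 and 5 of culture, which gives 24 libraries in 6 groups of 4. Every group carries the fusion, and each line is a single cell line, so that the spread given here is that between culture days and not between tumors or animals. No library was repeated within a day, and p-values therefore measure this spread only.

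Integrins are receptors made of an alpha and a beta chain that span the membrane, bind proteins outside the cell and link them to the actin or keratin cytoskeleton. Laminins are trimers of an alpha, a beta and a gamma chain that build the basement membrane on which epithelial cells rest, and integrins that contain Itga3, Itga6 or Itga7 are their main receptors. Laminins that contain Lama3 and Lamb3 anchor epithelia at hemidesmosomes through Itga6 paired with Itgb4, while integrins of Itgav with Itgb6 or Itgb8 bind the latent form of TGF-beta and release or present it. In the lung, the basement membranes under the airway and alveolar epithelium contain Lama5 and Lama3 trimers.

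Library totals lay between 5780062 and 11732401 counts (median 9252878), and values are CPM, counts scaled to a common library size with edgeR's TMM factors. Where genes are compared with each other, CPM is divided by the kilobases of exon of the gene. Log2 fold changes are given ± SE, and adjusted p-values are those of edgeR's quasi-likelihood test. In such bulk cultures, fewer cells that express a gene and less RNA of it per cell cannot be told apart. Of 6 markers of lung epithelium, Nkx2-1, Sftpb, Sftpc and Scgb1a1 reached at most 7, 6, 1 and 1 counts in any library and Sftpa1 none, while Ager, a receptor of alveolar cells, reached 142 counts. The general epithelial markers Cdh1, Krt8, Krt18 and Krt19 were expressed in every line in DMSO (65.3 to 2652 CPM on average), while the other 3 of the 7 were low in EA1 and EA2. In EA1, EA2 and EA3, Epcam averaged 1.35, 0.494 and 132 CPM, Cldn4 0.291, 0 and 123 CPM and Cldn7 0.111, 0.0846 and 61.1 CPM. Of 15 leukocyte markers, Ptprc reached at most 4 counts and Cd4 and Tyrobp none, whereas Cd68, Csf1r and S100a8 reached 871, 73 and 30 counts, and the sum of the list reached 87.7 CPM in EA2 and 96.4 CPM in EA3, both in DMSO. A further pair of libraries, labelled EA3 on day 7, resembled EA2 more than EA3 across 14264 genes (correlation of log2 CPM 0.963 and 0.982 with EA2 against 0.867 and 0.850 with EA3), and these libraries were left out of all values in the comparisons.

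A first question was which chains the lines carried before any inhibition of ALK. In DMSO, Itgb1, the beta chain shared by most integrins, was the most abundant beta chain per length in every line, with 452 ± 92.8 (EA1), 229 ± 25.9 (EA2) and 216 ± 16.1 (EA3) CPM per kilobase (mean ± SD over 4 days). Its share of all beta chain signal per length was 72.8% ± 6.62, 72.1% ± 3.64 and 66.9% ± 2.44 in these lines. Among alpha chains, Itga3, which forms a laminin receptor with Itgb1, led with 196 ± 34.2 (EA1), 149 ± 7.42 (EA2) and 201 ± 39.5 (EA3) CPM per kilobase. Itga6, the other widespread laminin-binding chain, followed with 85.2 ± 13.0 (EA1), 74.7 ± 14.9 (EA2) and 91.4 ± 29.4 (EA3) CPM per kilobase, and these levels of Itga6 overlapped between the lines. Lama5 held nearly all of the laminin alpha chain signal per length (99.9%, 99.6% and 96.1%). The plot of DMSO levels per kilobase sets the 3 lines beside each other for 22 members.

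**Figure D1:**
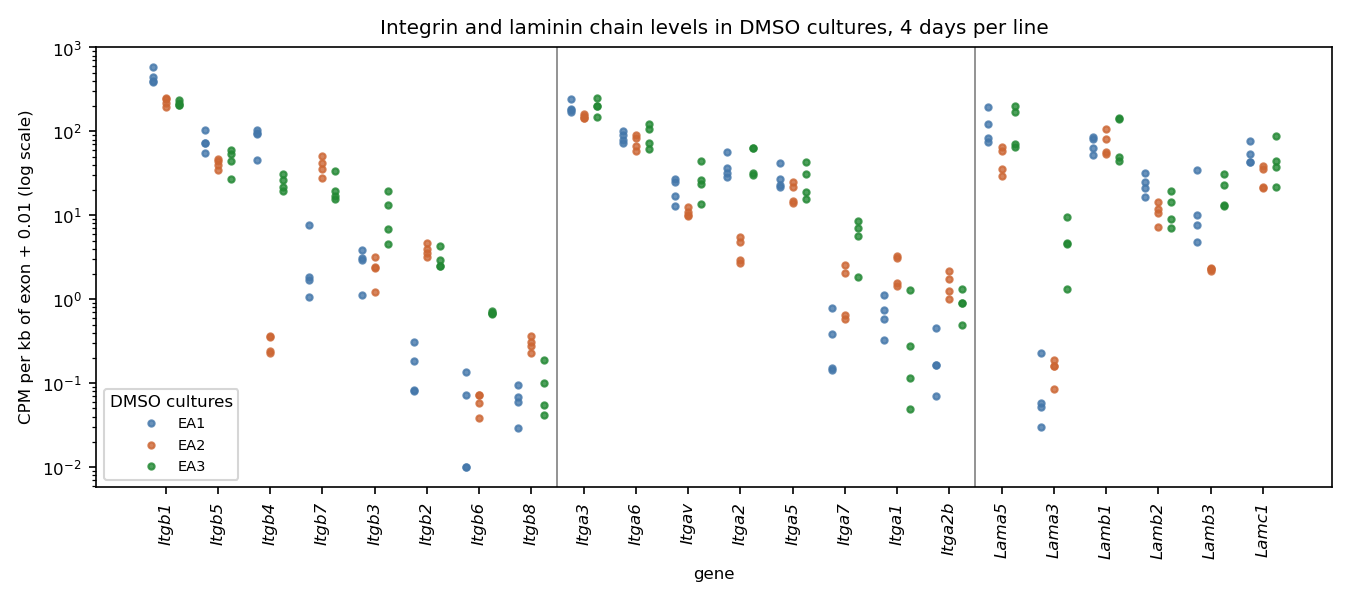
Levels of 22 integrin and laminin chain genes in DMSO cultures, as CPM per kilobase of exon plus 0.01 on a logarithmic axis, with 1 point per day (days 1, 2, 3 and 5) and the lines EA1, EA2 and EA3 side by side. Itgb1, Itga3 and Lama5 are high in every line, whereas Itgb4 lies apart in all 3 lines. The points of Itgb2 and Itgb7 lie lower in EA1 than in the other lines, and those of Itgb6 and Lama3 higher in EA3.

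The lines differed in DMSO in integrin beta chains, integrin alpha chains and laminin chains. Between DMSO cultures 24 members could be tested, and edgeR's quasi-likelihood test with the day as a block called 16 of them between EA2 and EA1 (40.8% of all 12886 genes tested were called in that comparison), 6 higher and 10 lower in EA2 (20.5% and 20.3% of all genes). Between EA3 and EA1 it called 11 (32.6% of all genes), 7 higher and 4 lower in EA3 (17.5% and 15.2%). Between EA3 and EA2 it called 13 (36.5%), 10 higher and 3 lower in EA3 (19.3% and 17.1%). Itgae and Itgb8 passed the filter on low counts only with the EA2 libraries and Itgb6 only with the EA3 libraries, so that these 3 had to differ to be tested, and their calls, included in these counts, are no support. The comparisons of EA2 and of EA3 with EA1 share the EA1 libraries.

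Itgb4, the partner of Itga6 in hemidesmosomes, set EA2 apart. It measured 658, 672, 317 and 734 CPM in EA1 on days 1, 2, 3 and 5 in DMSO (values of a culture are given in this order of days from here on). In EA2 it measured 1.52, 1.64, 2.51 and 2.41 CPM, and in EA3 185, 138, 153 and 220.3 CPM. All EA2 values lay far below those of both other lines, with a log2 difference of EA2 from EA1 of -8.19 (95% interval -8.86 to -7.51, adjusted p = 3.33e-09) and of EA3 from EA2 of 6.44 (95% interval 5.80 to 7.07, adjusted p = 2.04e-08). An opposite-strand transcript, B230344G16Rik, covers 7.66% of the Itgb4 exons. Relative to Itga6 and per length, Itgb4 had mean log2 ratios (± SD, n = 4 days) of -0.07 ± 0.75 (EA1), -8.00 ± 0.12 (EA2) and -1.84 ± 0.55 (EA3).

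The laminin chains Lama3 and Lamb3 were likewise lower in EA2 than in EA3. Lama3 measured 48.5, 14.1, 50.5 and 102 CPM in EA3, against 0.523, 0.446, 0.214 and 2.33 CPM in EA1 and 0.806, 1.64, 1.91 and 1.63 CPM in EA2. These EA3 values did not overlap with the others, and EA3 minus EA1 was 5.95 (95% interval 4.88 to 7.02, adjusted p = 3.15e-06). Lamb3 followed with a difference of EA3 from EA2 of 3.08 (95% interval 2.17 to 3.99, adjusted p = 0.000132), whereas EA3 and EA1 did not differ past the threshold (0.73 (95% interval -0.13 to 1.59, adjusted p = 0.18)).

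Itgb7 and Itgb2, beta chains best known from lymphocyte homing and from leukocyte adhesion, were lower in EA1 than in EA2 and EA3, and Itgb2 was close to the floor in EA1 with 2 to 7 counts in a library. Itgb7 measured 140.1, 118, 98.7 and 77.9 CPM in EA2 and 92.4, 42.8, 54.1 and 47.1 CPM in EA3, beside 4.71, 2.90, 21.1 and 5.04 CPM in EA1. The EA2 level exceeded that of EA1 by 3.86 (95% interval 2.84 to 4.89, adjusted p = 4.73e-05) and the EA3 level by 2.98 (95% interval 1.98 to 3.98, adjusted p = 0.000418) on the log2 scale. Itgb2 measured 9.58, 10.8, 14.4 and 11.9 CPM in EA2 and 7.54, 8.98, 7.52 and 13.0 CPM in EA3, beside 0.523, 0.223, 0.214 and 0.905 CPM in EA1. From EA1 it differed by 4.65 (95% interval 3.79 to 5.50, adjusted p = 2.19e-06) in EA2 and 4.31 (95% interval 3.46 to 5.17, adjusted p = 6.92e-06) in EA3. The alpha chains that pair with them in leukocytes were close to the floor of detection, since Itga4, Itgal, Itgad and Itgax reached at most 3, 2, 5 and 1 counts in any of the 24 libraries. For Itgam at most 3 counts were listed, but Gm49368 covers 68.7% of its exons on the same strand, so that the counter may have left out its reads and its level is uncertain. Itgae, the partner of Itgb7 on lymphocytes within epithelia, had a low level of 3.31, 1.64, 2.71 and 3.61 CPM in EA2, and EA1 and EA3 held at most 6 counts in a library. Cd68, a lysosomal protein counted among the leukocyte markers, averaged 40.3 CPM in EA2, 38.0 CPM in EA3 and 3.85 CPM in EA1 in DMSO and moved with Itgb2 and Itgb7 between lines, while Ptprc stayed at or under 4 counts. The part of other cells in these levels was not tested.

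Further chains separated single lines. Itga2, a collagen receptor chain, measured 19.2, 21.0, 39.8 and 34.2 CPM in EA2 but 261, 202, 404 and 228 CPM in EA1 and 228, 218, 454 and 458 CPM in EA3. This gave a log2 difference of EA2 from EA1 of -3.34 (95% interval -3.79 to -2.88, adjusted p = 1.86e-07). Itgb6, which pairs with Itgav on epithelial cells, measured 4.84, 4.67, 5.01 and 4.78 CPM in EA3 and at most 0.905 CPM in EA1 and 0.448 CPM in EA2. Itga7, a laminin receptor chain known from muscle, was lowest in EA1 and highest in EA3, with 1.15, 3.01, 1.07 and 6.33 CPM, 5.19, 4.61, 20.9 and 16.5 CPM and 15.0, 45.8, 57.1 and 69.7 CPM in these lines. Each step passed the threshold, with log2 differences of 2.02 (95% interval 1.06 to 2.98) between EA2 and EA1 and 2.02 (95% interval 1.17 to 2.87) between EA3 and EA2, although single days of neighbouring lines overlapped. Itgb3, the beta chain of the vitronectin receptor and of the platelet fibrinogen receptor, was higher in EA3 than in EA1 (1.90 (95% interval 1.04 to 2.76, adjusted p = 0.00304)). Itgb1 was lower than in EA1 in both EA2 (-1.01 (95% interval -1.36 to -0.66, adjusted p = 0.00037)) and EA3 (-1.04 (95% interval -1.40 to -0.69, adjusted p = 0.00042)), and Lamb2 likewise (adjusted p = 0.00248 and 0.00583). Lama5 was lower in EA2 than in EA1 (-1.33 (95% interval -1.72 to -0.93, adjusted p = 0.000115)) and than in EA3, and for Lamb1 the interval of the EA2 to EA1 difference was -0.47 to 0.49.

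The main question was which of these chains changed when ALK was inhibited. With alectinib, the laminin chain Lamb1 and the integrin chains Itga6 and Itgb7 fell, and the laminin chain Lamb2 and the integrin chains Itgb5, Itgb6 and Itgb8 rose, in each of the 3 lines. Of the 36 members, 27 passed the filter on low counts and were tested with 14264 genes in all. The filter looked at each line and treatment, so that a member low in DMSO could enter through the alectinib libraries. Itga9, Itga11 and Lama2 entered in this way, and since they were tested because they were high with alectinib, their calls are no support. The counts that follow include 2 such calls in each line, of Itga11 with Itga9 in EA1 and EA3 and with Lama2 in EA2. In EA1, 15 of the 27 were called (33.6% of all genes tested were called), 9 of them higher (19.0% of all genes) and 6 lower (14.6%). In EA2, 18 were called against 24.4% of all genes, 10 higher (13.0%) and 8 lower (11.3%). In EA3, 12 were called against 32.6% of all genes, 8 higher (17.5%) and 4 lower (15.1%). The median log2 fold change of the 27 was 0.31, 0.13 and -0.06 in these lines, beside 0.06, -0.00 and 0.07 for all genes tested. The medians of the 27 include the values of Itga9, Itga11 and Lama2, which entered through their alectinib libraries. Itga9 in EA3, with 1 count in all DMSO libraries, lay above the EA3 median of the 27 at either end of its counting interval. This is no support either, since its level with alectinib let it be tested. Of the 27, 5 were higher in all 3 lines, Itga11 among them (5.78% of all genes were) and 3 were lower in all 3 (4.23% of all genes). In at least 1 line 22 were called, with Itga9, Itga11 and Lama2 among them (53.2% of all genes). The heat map of daily ratios shows every tested member on every day.

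**Figure D2:**
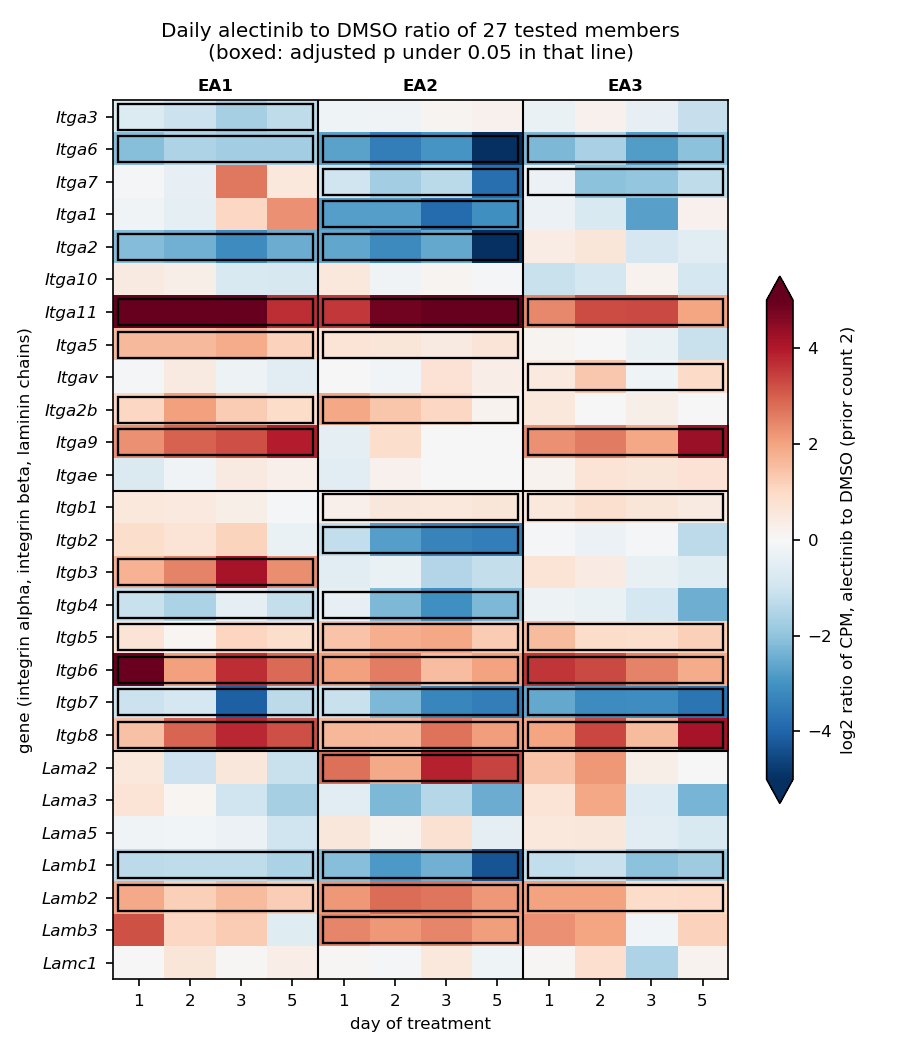
Log2 ratio of CPM with alectinib to CPM with DMSO of the same line and day (prior count 2) for the 27 tested members, in rows by integrin alpha, integrin beta and laminin chains and in columns by line and day, with black boxes where edgeR's adjusted p was under 0.05 in that line. Colours end at 5 in either direction, and Itga6, Itgb7 and Lamb1 are blue and Itga11, Itgb5, Itgb6, Itgb8 and Lamb2 red on all 4 days of all 3 lines.

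Itga6, the laminin receptor chain that also anchors hemidesmosomes, fell in every line. In EA1 it measured 812, 649, 912 and 704 CPM in DMSO and 185, 222, 270.4 and 214 CPM with alectinib. In EA2 the values were 529.8, 598, 743 and 827 CPM in DMSO and 82.5, 53.7, 95.2 and 25.3 CPM with alectinib. In EA3 they were 975, 552, 1118 and 654 CPM in DMSO and 208, 178, 161 and 157 CPM with alectinib. DMSO and alectinib values did not overlap in any line, and the lowest value of all was that of EA2 on day 5 of alectinib. The log2 fold change was -1.79 ± 0.30 (adjusted p = 0.00065) in EA1, -3.51 ± 0.33 (adjusted p = 1.19e-05) in EA2 and -2.18 ± 0.30 (adjusted p = 0.000194) in EA3. Its usual partner Itgb4 fell in EA1, from 658, 672, 317 and 734 CPM to 301, 224, 235 and 316 CPM, with a log2 fold change of -1.09 ± 0.34 (adjusted p = 0.0247). In EA2, where Itgb4 was already at 1.52, 1.64, 2.51 and 2.41 CPM, alectinib cultures held 1.09, 0.177, 0.113 and 0.337 CPM (-2.13 ± 0.64 (adjusted p = 0.0268)). In EA3, Itgb4 measured 157, 109, 84.2 and 40.1 CPM with alectinib, and the difference missed the threshold (-0.95 ± 0.35 (adjusted p = 0.0532)). Leaving out day 2 ended the Itgb4 call in EA1, and leaving out day 2, 3 or 5 ended that in EA2. In EA3, Itgb4 was called without the low count filter, by DESeq2's test and without day 1. It was also called with all 26 libraries, but these include the pair labelled EA3 on day 7, which resembled EA2. Itga3, the most abundant alpha chain, fell in EA1, where it measured 1059.5, 1020.2, 1405 and 980.3 CPM in DMSO and 661, 485, 446 and 403 CPM with alectinib, with a log2 fold change of -1.17 ± 0.20 (adjusted p = 0.000841). Itga3 in EA2 measured 909, 821, 819 and 862 CPM in DMSO and 785, 723, 912 and 1002 CPM with alectinib (-0.01 ± 0.20 (adjusted p = 0.996)). Itga3 in EA3 measured 1160.1, 859, 1410.1 and 1154 CPM in DMSO and 911, 987, 1050.3 and 513 CPM with alectinib (-0.43 ± 0.20 (adjusted p = 0.116)), and the groups overlapped in both lines.

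Lamb1, the beta chain of the widespread laminins, fell in every line, and Lamb2, the beta chain that replaces it in the basement membranes of vessels, kidney and synapses, rose in every line. In EA1, Lamb1 measured 526, 632, 854 and 800.5 CPM in DMSO and 211, 261, 353 and 269 CPM with alectinib. In EA2, Lamb1 measured 571, 538, 1063 and 809 CPM in DMSO and 130.5, 72.8, 199.5 and 40.7 CPM with alectinib, and in EA3 444, 496, 1451 and 1385 CPM in DMSO and 188, 229.6, 353 and 409 CPM with alectinib. The groups did not overlap in any line, although the lowest DMSO value of EA3 (444 CPM on day 1) and its highest alectinib value (409 CPM on day 5) were close. The log2 fold change was -1.36 ± 0.27 (adjusted p = 0.00213) in EA1, -2.91 ± 0.29 (adjusted p = 2.05e-05) in EA2 and -1.54 ± 0.27 (adjusted p = 0.00104) in EA3. For Lamb2, EA1 held 100.4, 151, 128 and 196 CPM in DMSO and 373, 348, 387 and 457 CPM with alectinib. Lamb2 in EA2 measured 64.8, 43.7, 88.5 and 73.3 CPM in DMSO and 291, 305, 567 and 329 CPM with alectinib. Lamb2 in EA3 measured 42.6, 54.9, 86.8 and 117 CPM in DMSO and 174, 222, 162 and 228 CPM with alectinib. Every alectinib value of Lamb2 exceeded every DMSO value of its line, by 1.48 ± 0.21 (adjusted p = 0.000227) in EA1, 2.45 ± 0.22 (adjusted p = 9.38e-06) in EA2 and 1.47 ± 0.21 (adjusted p = 0.000269) in EA3 on the log2 scale.

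Set against each other per length, these chains changed places. The log2 ratio of Lamb2 to Lamb1 was -1.68, -1.36, -2.03 and -1.33 in DMSO and 1.53, 1.12, 0.84 and 1.47 with alectinib in EA1. For EA2 the values were -2.43, -2.92, -2.88 and -2.76 in DMSO and 1.86, 2.77, 2.21 and 3.72 with alectinib. In EA3 it was -2.67, -2.47, -3.36 and -2.86 in DMSO and 0.59, 0.65, -0.41 and -0.14 with alectinib, so that Lamb1 stayed slightly the more abundant chain on days 3 and 5. Of the beta chain signal per length, Lamb1 held 66.4% ± 8.97 (EA1), 84.6% ± 2.05 (EA2) and 72.8% ± 4.26 (EA3) in DMSO (mean ± SD, n = 4 days). With alectinib it held 23.5% ± 5.64, 12.7% ± 5.31 and 27.2% ± 10.2. With alectinib, Lamb2 was the largest share in EA1 (54.3%) and EA2 (73.3%), and Lamb3 had the largest mean share in EA3 (43.6% against 29.2% for Lamb2). The plot of Lamb2 relative to Lamb1 shows this ratio library by library.

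**Figure D3:**
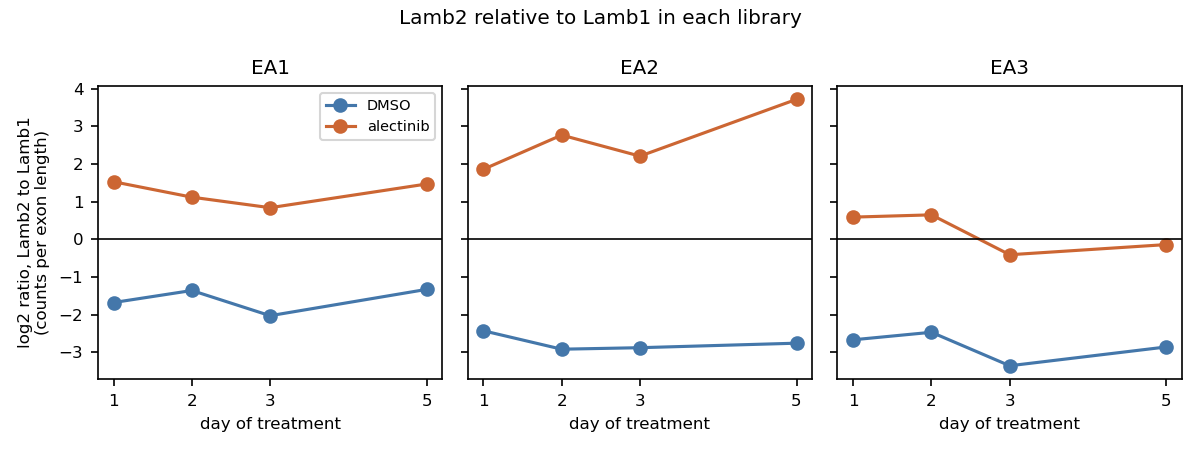
Log2 ratio of Lamb2 to Lamb1 counts per exon length in each library (vertical axis) against the day of treatment (horizontal axis), in 1 panel per line, with DMSO in blue and alectinib in orange. All 12 DMSO points lie under 0, and all alectinib points lie above 0 except those of EA3 on days 3 and 5 (-0.41 and -0.14).

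Itgb7 was the third chain that fell in every line. In EA1 it measured 4.71, 2.90, 21.1 and 5.04 CPM in DMSO and 2.12, 1.47, 1.04 and 1.93 CPM with alectinib, with day 3 of DMSO far above the other days. Itgb7 in EA2 measured 140.1, 118, 98.7 and 77.9 CPM in DMSO and 65.2, 24.6, 10.0 and 6.97 CPM with alectinib. Itgb7 in EA3 measured 92.4, 42.8, 54.1 and 47.1 CPM in DMSO and 15.4, 4.69, 6.02 and 3.57 CPM with alectinib. The groups did not overlap in any line. Its log2 fold change was -1.98 ± 0.54 (adjusted p = 0.0133) in EA1, -2.51 ± 0.45 (adjusted p = 0.00125) in EA2 and -3.13 ± 0.46 (adjusted p = 0.000282) in EA3, and without day 3 the EA1 value was -1.22 and missed the threshold. Cd68 averaged 3.85 and 4.05 CPM in EA1, 40.3 and 26.6 CPM in EA2, and 38.0 and 11.8 CPM in EA3 in DMSO and with alectinib. Other leukocyte markers did not all move with Cd68. In EA3, Csf1r averaged 1.30 and 3.43 CPM and S100a8 1.43 and 0.240 CPM in DMSO and with alectinib. The part of cells with such markers in the falls of Itgb7 and of Itgb2 was not tested.

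Among the chains that rose in every line were 3 beta chains that pair with Itgav, namely Itgb5, Itgb6 and Itgb8. Itgb5, part of a vitronectin receptor, measured 258, 374, 196 and 258 CPM in DMSO and 411, 398, 408 and 475 CPM with alectinib in EA1. Itgb5 in EA2 measured 142, 124, 168 and 158 CPM in DMSO and 379.5, 437, 640.0 and 383 CPM with alectinib. Itgb5 in EA3 measured 97.2, 189, 216 and 157 CPM in DMSO and 294, 358, 392 and 359 CPM with alectinib. No alectinib value fell within the DMSO range of its line, although the highest DMSO value of EA1 (374 CPM on day 2) came near the alectinib values, and the log2 fold changes were 0.68 ± 0.18 (adjusted p = 0.0101) in EA1, 1.61 ± 0.18 (adjusted p = 3.94e-05) in EA2 and 1.14 ± 0.18 (adjusted p = 0.000411) in EA3. Leaving out day 3 or day 5 ended the Itgb5 call in EA1. Itgb5 accounted for 12.5%, 13.2% and 14.1% of the beta chain signal per length in DMSO and for 16.3%, 27.5% and 21.4% with alectinib in EA1, EA2 and EA3.

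Itgb6 and Itgb8, whose dimers with Itgav bind latent TGF-beta, rose from low levels. Itgb6 measured 0, 0.446, 0 and 0.905 CPM in DMSO and 6.46, 2.57, 2.59 and 7.71 CPM with alectinib in EA1. No read of it was counted in DMSO on days 1 and 3. Itgb6 in EA2 measured 0.448, 0.446, 0.201 and 0.344 CPM in DMSO and 2.57, 3.71, 1.01 and 2.02 CPM with alectinib. Itgb6 in EA3 measured 4.84, 4.67, 5.01 and 4.78 CPM in DMSO and 59.5, 48.6, 29.0 and 17.8 CPM with alectinib. The groups were apart in every line, with log2 fold changes of 3.95 ± 0.59 (adjusted p = 0.000319), 2.59 ± 0.58 (adjusted p = 0.00561) and 2.88 ± 0.44 (adjusted p = 0.000377) in EA1, EA2 and EA3. Itgb8 measured 0.941, 0.557, 0.214 and 0.646 CPM in DMSO and 2.99, 5.63, 5.70 and 7.79 CPM with alectinib in EA1. Itgb8 in EA2 measured 3.94, 2.97, 2.41 and 3.35 CPM in DMSO and 13.0, 9.54, 16.8 and 14.9 CPM with alectinib. Itgb8 in EA3 measured 0.987, 0.350, 1.98 and 0.494 CPM in DMSO and 4.53, 5.56, 6.40 and 12.2 CPM with alectinib. Again no values overlapped, and the log2 fold changes were 3.17 ± 0.52 (adjusted p = 0.000617), 2.09 ± 0.44 (adjusted p = 0.00393) and 2.89 ± 0.50 (adjusted p = 0.000881). Their partner Itgav measured 253, 146, 472 and 286 CPM in DMSO and 352, 374, 404 and 553 CPM with alectinib in EA3, which passed the threshold by a narrow margin (0.64 ± 0.23 (adjusted p = 0.0493)), while its log2 fold change was -0.11 ± 0.23 (adjusted p = 0.734) in EA1 and 0.23 ± 0.23 (adjusted p = 0.505) in EA2. Per length, Itgb6 and Itgb8 stayed minor chains with alectinib, at 5.44 ± 2.65 and 0.649 ± 0.312 CPM per kilobase in EA3 beside 98.8 ± 11.5 for Itgb5.

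Itga11, a collagen receptor chain best known from fibroblasts, was near 0 in most DMSO libraries and was tested only because of its level with alectinib, so that its values are given without a test. It measured 0.105, 0.111, 0.534 and 4.52 CPM in DMSO and 10.5, 21.2, 53.9 and 61.8 CPM with alectinib in EA1, with the day 5 DMSO culture above the earlier days. Itga11 in EA2 measured 0.0896, 0, 0.401 and 0.515 CPM in DMSO and 3.36, 5.83, 41.1 and 51.2 CPM with alectinib. Itga11 in EA3 measured 0.0897, 0.117, 0.924 and 0.989 CPM in DMSO and 1.39, 2.94, 11.2 and 4.54 CPM with alectinib. Every alectinib value exceeded the DMSO values of its line. Itga2, the collagen receptor chain of epithelia and platelets, fell in EA1, where it measured 261, 202, 404 and 228 CPM in DMSO and 58.8, 38.0, 45.1 and 41.0 CPM with alectinib (-2.55 ± 0.38 (adjusted p = 0.0003)). It also fell in EA2, with 19.2, 21.0, 39.8 and 34.2 CPM in DMSO and 2.96, 2.12, 6.66 and 0.337 CPM with alectinib (-3.38 ± 0.45 (adjusted p = 0.000136)). In EA3 it measured 228, 218, 454 and 458 CPM in DMSO and 295, 334, 253 and 319.8 CPM with alectinib, the groups overlapped, and the log2 fold change was -0.09 ± 0.36 (adjusted p = 0.866). Summed markers of fibroblasts and smooth muscle were higher with alectinib in every line. The summed CPM of 8 fibroblast markers lay between 9.09 and 44.1 (EA1), 58.5 and 71.5 (EA2) and 10.2 and 20.2 (EA3) in DMSO. With alectinib it lay between 125.8 and 478, 122 and 239.8, and 84.8 and 274. Not every marker rose, since Pdgfra averaged 0.273 and 0.106 CPM in EA2 and 1.34 and 1.33 CPM in EA3 in DMSO and alectinib, Thy1 reached at most 2 counts and Lum none in EA2, where Dcn and Col1a2 made up most of the sum. Of 5 smooth muscle markers the sums were 2.03 to 7.02, 0.859 to 2.96 and 0.180 to 1.19 in DMSO, and 515 to 754, 49.2 to 1310.0 and 2.68 to 30.1 with alectinib. Most of this was Acta2, while Tagln reached at most 5 counts in any library. Des did not rise in every line, and averaged 0.264 and 0.105 CPM in EA3 in DMSO and with alectinib. Of 7 epithelial markers the sums were 4633 to 9253, 1811 to 2695 and 4788 to 6937 in DMSO, and 3245 to 5368, 567 to 1169 and 3104 to 7243 with alectinib. Krt8, Krt18 and Krt19 made up most of these sums, whereas Cdh1 averaged 547, 65.3 and 645 CPM in DMSO and 665, 189.8 and 1035 CPM with alectinib, and Cldn4 in EA3 123 and 366 CPM. The part of these markers in the changes of the members was not tested.

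**Figure D4:**
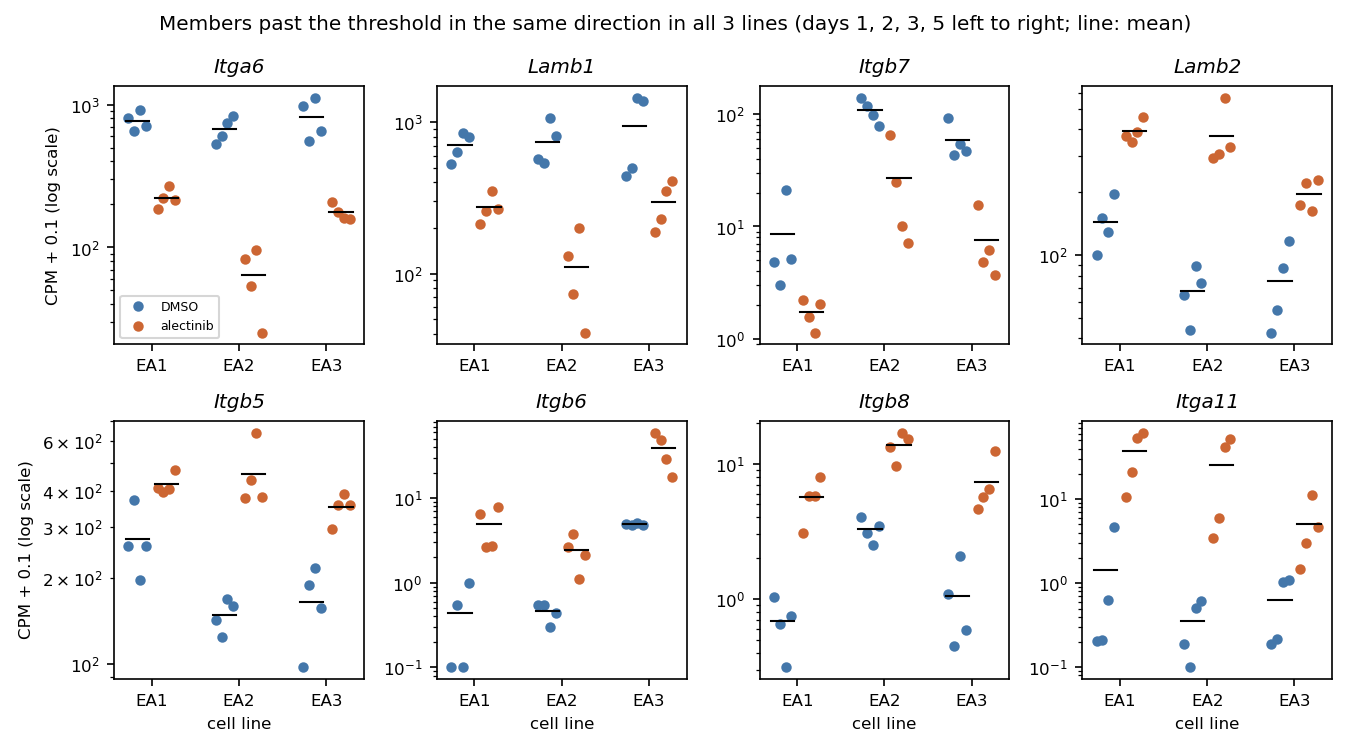
CPM plus 0.1 on a logarithmic axis for the 8 members called in the same direction in all 3 lines (Itga11 tested only because of its alectinib libraries), with DMSO in blue, alectinib in orange, 1 point per day (days 1, 2, 3 and 5 from left to right) and a black line at the mean of 4 days. In each panel the orange points of a line lie wholly under (Itga6, Lamb1, Itgb7) or wholly over (Lamb2, Itgb5, Itgb6, Itgb8, Itga11) its blue points.

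The start regions of 4 of these genes are shown because Lamb1 and Lamb2 moved in opposite directions and Itgb6 and Itgb8 rose together. Each line gives the 250 bases before the RefSeq start (build GRCm38.p6), 5′ to 3′ on the strand of the gene, with capitals for the letters of a GC box (GGGCGG or its reverse complement). No match to the AP-1 letters TGANTCA, the ETS letters CCGGAA or the TEAD letters GGAATG was found in these windows on either strand, so capitals appear in Lamb1 alone.
Lamb1 (chr12:31265043-31265292, plus strand): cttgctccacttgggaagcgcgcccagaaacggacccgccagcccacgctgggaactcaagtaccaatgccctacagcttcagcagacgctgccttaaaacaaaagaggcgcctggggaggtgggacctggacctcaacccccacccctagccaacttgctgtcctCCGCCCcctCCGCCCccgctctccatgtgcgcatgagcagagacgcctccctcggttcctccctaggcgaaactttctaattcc
Lamb2 (chr9:108479612-108479861, plus strand): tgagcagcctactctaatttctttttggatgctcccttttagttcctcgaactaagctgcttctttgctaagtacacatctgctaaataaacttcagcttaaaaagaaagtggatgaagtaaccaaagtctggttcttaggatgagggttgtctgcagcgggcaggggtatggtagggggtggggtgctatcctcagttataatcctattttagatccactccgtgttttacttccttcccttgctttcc
Itgb6 (chr2:60722604-60722853, minus strand): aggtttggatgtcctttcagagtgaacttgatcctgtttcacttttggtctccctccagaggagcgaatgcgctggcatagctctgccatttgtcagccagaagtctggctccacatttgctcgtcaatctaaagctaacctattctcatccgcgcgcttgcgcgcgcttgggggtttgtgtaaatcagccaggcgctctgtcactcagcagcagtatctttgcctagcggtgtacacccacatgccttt
Itgb8 (chr12:119238277-119238526, minus strand): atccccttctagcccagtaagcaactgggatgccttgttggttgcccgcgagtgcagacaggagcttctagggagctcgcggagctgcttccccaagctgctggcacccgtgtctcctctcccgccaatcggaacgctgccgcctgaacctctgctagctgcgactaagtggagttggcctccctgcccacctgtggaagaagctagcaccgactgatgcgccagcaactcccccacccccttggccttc

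The window of Lamb1 held 2 GC boxes and 62.0% G or C, that of Lamb2 no GC box and 43.6% G or C, and those of Itgb6 and Itgb8 no GC box with 52.0% and 62.4%. Of 27025 RefSeq windows of this length, 6.87% held the AP-1 letters, 12.2% the ETS letters, 12.6% the TEAD letters and 32.9% the GC box. Among the 19 tested members with such a window, 0 held the AP-1 letters, 1 the ETS letters (Itga3), 2 the TEAD letters (Itga10 and Itgb1) and 6 the GC box (Itga3, Itga5, Itgb1, Itgb5, Lama5 and Lamb1). A match is a run of letters and not a measured binding site, and the lack of 1 says only that these letters are not in this window. In the annotation, the Lamb1 gene lies at chr12:31265234-31329644, plus strand, Lamb2 at chr9:108479736-108490530, plus strand, Itgb6 at chr2:60598292-60722643, minus strand and Itgb8 at chr12:119158022-119238802, minus strand (mm10). These gene spans begin before the RefSeq starts, so that the windows shown lie partly, and that of Itgb8 wholly, within them. Itga6 lies at chr2:71745616-71858416, plus strand, Itgb7 at chr15:102215995-102231944, minus strand, Itgb5 at chr16:33829665-33949338, plus strand and Itga11 at chr9:62677826-62783982, plus strand.

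Whether the lines responded alike was tested directly. In response to alectinib the lines differed, by a test with 2 degrees of freedom, for 7 of the 27 members (6.84% of all genes tested), namely Itga1, Itga2, Itga5, Itga6, Itgb2, Itgb3 and Lamb1. In pairs, 8 members differed between EA2 and EA1 (6.44% of all genes), 3 between EA3 and EA1 (1.79%) and 2 between EA3 and EA2 (2.86%).

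Itgb3 and Itga5, chains of the vitronectin and fibronectin receptors, gave the smallest p-values between lines. Itgb3 rose in EA1, where it measured 18.1, 17.2, 6.52 and 22.9 CPM in DMSO and 60.4, 96.6, 119 and 114 CPM with alectinib (2.64 ± 0.34 (adjusted p = 0.000118)). Itgb3 in EA2 measured 14.2, 7.13, 13.9 and 19.0 CPM in DMSO and 9.68, 5.66, 4.96 and 8.20 CPM with alectinib (-0.91 ± 0.35 (adjusted p = 0.0741)). Itgb3 in EA3 measured 26.7, 40.9, 77.5 and 114 CPM in DMSO and 43.1, 54.7, 60.4 and 75.6 CPM with alectinib (0.04 ± 0.32 (adjusted p = 0.945)), and the groups overlapped in both lines. The effect in EA2 minus that in EA1 was -3.55 (95% interval -4.60 to -2.50, adjusted p = 0.00131), and that in EA3 minus EA1 was -2.60 (95% interval -3.60 to -1.60, adjusted p = 0.0141). Itga5, the fibronectin receptor chain, rose in EA1 with 114, 132, 108 and 205 CPM in DMSO and 355, 413, 391 and 455 CPM with alectinib (1.57 ± 0.18 (adjusted p = 4.46e-05)). In EA2 it rose by less, with 69.9, 72.4, 122 and 106 CPM in DMSO and 111, 109, 164 and 167 CPM with alectinib (0.59 ± 0.18 (adjusted p = 0.0276)), and the EA2 call was lost without day 1, 2 or 3. In EA3 it measured 77.7, 94.0, 152 and 214 CPM in DMSO and 85.3, 91.8, 120.3 and 99.1 CPM with alectinib (-0.34 ± 0.18 (adjusted p = 0.171)). Its effect differed from that in EA1 by -0.99 (95% interval -1.52 to -0.45) in EA2 and by -1.91 (95% interval -2.45 to -1.36) in EA3 (adjusted p = 0.0349 and 0.00265). In EA1, Itga5 made up 7.88% ± 2.97 of the alpha chain signal per length in DMSO and 35.8% ± 4.23 with alectinib, close to Itga3 at 38.1% ± 7.90.

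Itga1, Itga2 and Itgb2 differed between lines as well. Itga1, a collagen receptor chain, fell in EA2 with 26.2, 28.8, 56.9 and 61.4 CPM in DMSO and 3.65, 4.07, 3.72 and 7.19 CPM with alectinib (-3.17 ± 0.49 (adjusted p = 0.000404)). Itga1 in EA1 measured 13.6, 20.9, 10.7 and 5.82 CPM in DMSO and 12.2, 14.9, 21.9 and 29.1 CPM with alectinib (0.64 ± 0.46 (adjusted p = 0.299)). Itga1 in EA3 measured 0.718, 1.98, 23.9 and 4.94 CPM in DMSO and 0.554, 1.09, 3.48 and 5.74 CPM with alectinib (-1.09 ± 0.56 (adjusted p = 0.159)), and the groups overlapped in both lines. The EA2 effect on Itga1 lay -3.82 (95% interval -5.25 to -2.38) from that of EA1 (adjusted p = 0.00564). Itgb2 fell in EA2, with 9.58, 10.8, 14.4 and 11.9 CPM in DMSO and 3.95, 1.41, 1.24 and 0.899 CPM with alectinib (-2.80 ± 0.43 (adjusted p = 0.000433)), and differed there from EA1 by -3.56 (95% interval -5.05 to -2.07, adjusted p = 0.0102) and from EA3 by 2.35 (95% interval 1.11 to 3.58) (EA3 minus EA2, adjusted p = 0.045). In EA1, Itgb2 was close to the floor, with 2 to 7 counts in a DMSO library and 4 to 12 with alectinib (0.490 to 1.16 CPM). Its log2 fold change there was 0.76 ± 0.54 (adjusted p = 0.292), so that the difference from EA1 rests on few counts. In EA3, Itgb2 measured 7.54, 8.98, 7.52 and 13.0 CPM in DMSO and 7.21, 7.20, 6.96 and 5.09 CPM with alectinib, which did not overlap, yet the fold change missed the threshold (-0.45 ± 0.39 (adjusted p = 0.391)). The effect on Itga2 in EA3 differed from EA1 by 2.45 (95% interval 1.35 to 3.56, adjusted p = 0.0307) and from EA2 by 3.29 (95% interval 2.05 to 4.53, adjusted p = 0.0103). Itga6 and Lamb1 fell further in EA2 than in EA1, with differences of -1.72 (95% interval -2.62 to -0.81, adjusted p = 0.0296) and -1.55 (95% interval -2.38 to -0.72, adjusted p = 0.0324) on the log2 scale. The tests of Itga6 and Lamb1 over the 3 lines lay close to the threshold (adjusted p = 0.0481 and 0.0439), and the Itga6 call was lost without day 2, 3 or 5 and the Lamb1 call whichever day was left out. The call of Itga1 was lost without day 3, that of Itga2 without day 2 and that of Itgb2 without day 2 or day 3, whereas those of Itga5 and Itgb3 held whichever day was left out. In the pairwise tests of EA2 against EA1, Itga3 (1.17 (95% interval 0.56 to 1.78, adjusted p = 0.0283)) and Itgb5 (0.93 (95% interval 0.39 to 1.47, adjusted p = 0.042)) were also past the threshold, although their tests over the 3 lines were not (adjusted p = 0.0528 and 0.0799).

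**Figure D5:**
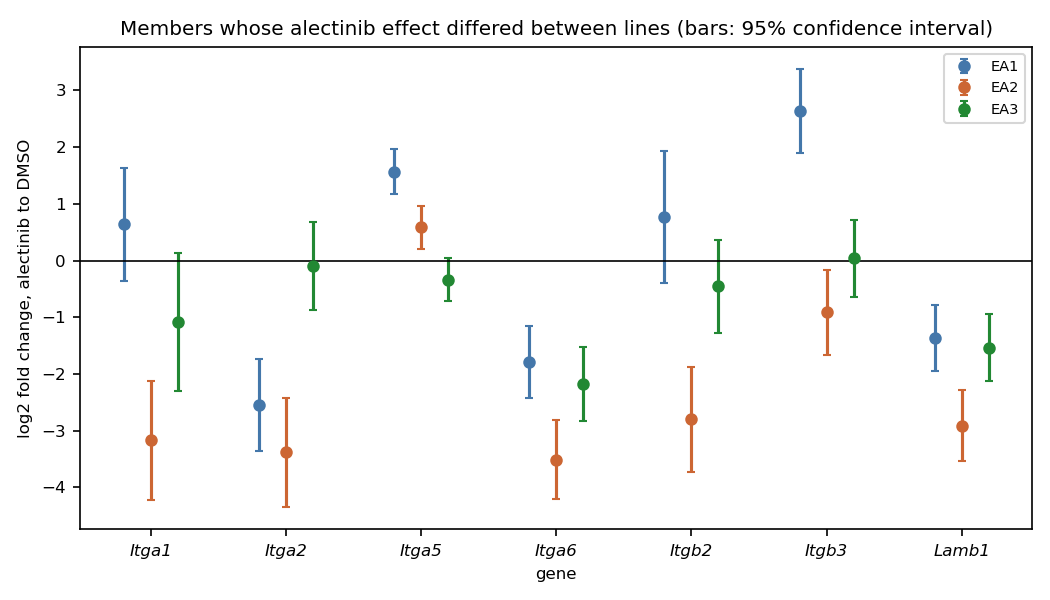
Log2 fold change of alectinib against DMSO (vertical axis) for the 7 members whose effect differed between lines, with 1 point per line and bars for the 95% confidence interval from edgeR's fit. Itgb3 and Itga5 are highest in EA1, Itga1 and Itgb2 are lowest in EA2, Itga2 is near 0 in EA3 alone, and Itga6 and Lamb1 are under 0 in all 3 lines and lowest in EA2.

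The remaining integrin chains changed in 1 or 2 lines or not past the threshold. Itgb1 rose by small amounts in EA2, from 798, 902, 1033 and 999.8 CPM to 962, 1349.7, 1466 and 1538 CPM (0.50 ± 0.13 (adjusted p = 0.0159)), and in EA3, from 832, 901, 969 and 831 CPM to 1205, 1587, 1492 and 1124 CPM (0.60 ± 0.13 (adjusted p = 0.00434)). In EA1 it measured 1568, 1607, 1821 and 2389.6 CPM in DMSO and 2266, 2258, 2243 and 2270.4 CPM with alectinib (0.31 ± 0.13 (adjusted p = 0.088)). The EA2 call was lost without day 2, 3 or 5 and the EA3 call without day 2. Itga9, a receptor chain for tenascin and osteopontin, was at or near 0 in DMSO, with 1, 0, 3 and 2 counts in EA1 and 0, 0, 1 and 0 counts in EA3. With alectinib it measured 1.35, 1.47, 4.76 and 7.04 CPM in EA1 and 0.831, 1.09, 1.13 and 4.11 CPM in EA3. In EA3 the 4 alectinib libraries held 69 counts and the 4 DMSO libraries 1, a ratio per total count of 57.8 (exact 95% counting interval 10 to 2310), which covers counting error only. In EA2 both treatments gave at most 1 count of Itga9 in a library.

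Itga7 fell in EA2, from 5.19, 4.61, 20.9 and 16.5 CPM to 2.47, 1.24, 8.12 and 1.01 CPM (-1.97 ± 0.53 (adjusted p = 0.0156)), and in EA3, from 15.0, 45.8, 57.1 and 69.7 CPM to 12.2, 10.9, 15.0 and 28.7 CPM (-1.41 ± 0.47 (adjusted p = 0.0335)), with overlapping groups in both. The EA2 call was lost without day 5 and the EA3 call without day 2, 3 or 5, and in EA1 Itga7 measured 1.15, 3.01, 1.07 and 6.33 CPM in DMSO and 1.06, 2.21, 7.87 and 9.13 CPM with alectinib (0.72 ± 0.55 (adjusted p = 0.324)). Itga2b, the platelet fibrinogen receptor chain, rose in EA1, with 0.837, 0.334, 0.855 and 2.46 CPM in DMSO and 1.93, 2.08, 2.38 and 4.86 CPM with alectinib (1.44 ± 0.35 (adjusted p = 0.00651)). It rose in EA2 too, with 6.72, 5.50, 11.8 and 9.45 CPM in DMSO and 26.1, 14.7, 24.2 and 10.7 CPM with alectinib (1.14 ± 0.29 (adjusted p = 0.0118)). EA3 cultures held 2.60, 4.90, 4.88 and 7.08 CPM in DMSO and 3.88, 4.80, 6.12 and 6.92 CPM with alectinib (0.20 ± 0.30 (adjusted p = 0.633)). Values of EA1 and EA2 overlapped between treatments, and the calls were lost without day 2 or 3 in EA1 and without day 1, 2 or 3 in EA2. The other 4 of the 5 platelet and megakaryocyte markers did not all move with Itga2b. Ppbp, a platelet chemokine, averaged 0.185, 5.58 and 1.38 CPM in DMSO and 35.0, 9.89 and 15.1 CPM with alectinib in these lines, Gp1ba 0.519, 1.39 and 0.681 against 0.714, 5.10 and 0.447 CPM, and Pf4 0.0590, 0.579 and 0.0516 against 1.83, 0.130 and 0.159 CPM, while Gp9 reached at most 4 counts. The part of such cells in the Itga2b level was not tested. Itga10, a collagen receptor chain of cartilage, and Itgae were tested but called in none of the lines, with adjusted p between 0.167 and 0.903 by edgeR's test and no unadjusted p under 0.05, and Gm42957 covers 33.5% of the Itga10 exons on the same strand.

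Among the laminin chains other than Lamb1 and Lamb2, Lamb3 rose in EA2, and Lama3, Lama5 and Lamc1 did not pass the threshold in any line by edgeR's test. Lamb3 rose in EA2, with 15.1, 14.1, 15.6 and 15.1 CPM in DMSO and 83.4, 64.0, 86.3 and 64.5 CPM with alectinib and no overlap (2.30 ± 0.49 (adjusted p = 0.00432)). Lamb3 in EA1 measured 31.5, 67.1, 50.2 and 231 CPM in DMSO and 289, 138, 122 and 152 CPM with alectinib. Lamb3 in EA3 measured 87.7, 85.7, 205 and 154 CPM in DMSO and 433, 333, 185 and 340.1 CPM with alectinib. In both lines it was higher on 3 of 4 days and missed the threshold (1.21 ± 0.50 (adjusted p = 0.0795) and 1.33 ± 0.48 (adjusted p = 0.0503)). These misses depended on the setting, since Lamb3 was called in EA3 under 8 of 12 alternatives, among them DESeq2's test and the fit without the replicate block, and in EA1 under 3 of 12. The 8 include the fit with all 26 libraries, which holds the pair labelled EA3 that resembled EA2. Lama3 was not called in any line (-0.68 ± 0.94 (adjusted p = 0.601), -2.01 ± 0.90 (adjusted p = 0.126) and -0.06 ± 0.58 (adjusted p = 0.949) in EA1, EA2 and EA3), and in EA3 it measured 48.5, 14.1, 50.5 and 102 CPM in DMSO and 79.1, 54.7, 32.5 and 20.1 CPM with alectinib. In EA2 it measured 0.806, 1.64, 1.91 and 1.63 CPM in DMSO and 0.494, 0.177, 0.564 and 0.112 CPM with alectinib, with no overlap, and DESeq2's test called it there (adjusted p = 0.0181). EA1 held 0.965, 0.490, 0 and 0.587 CPM of Lama3 with alectinib. Lama2, the alpha chain of muscle and nerve laminins, was tested only because of its level with alectinib in EA2, where it measured 0.358, 0.595, 0 and 0.0859 CPM in DMSO and 3.65, 2.83, 2.93 and 2.92 CPM with alectinib, and it held at most 0.414 CPM in EA1 and 0.763 CPM in EA3.

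Lama5 and Lamc1, the most widespread laminin alpha and gamma chains, did not pass the threshold in any line, by edgeR or by DESeq2, and neither had an unadjusted p under 0.05 in edgeR's test. Lama5 in EA1 measured 848, 940.1, 1387 and 2246 CPM in DMSO and 751, 861, 1138 and 1133 CPM with alectinib. Lama5 in EA2 measured 409, 337, 669 and 751 CPM in DMSO and 605, 381, 1124 and 541 CPM with alectinib. Lama5 in EA3 measured 750.0, 817, 1964 and 2304 CPM in DMSO and 1094, 1192, 1312 and 1361 CPM with alectinib. Its log2 fold change was -0.39 (95% interval -0.93 to 0.15), 0.26 (95% interval -0.29 to 0.80) and -0.06 (95% interval -0.61 to 0.49) in these lines. Lamc1 in EA1 measured 361, 355, 637 and 446 CPM in DMSO and 362, 538, 659 and 562 CPM with alectinib. Lamc1 in EA2 measured 174, 178, 295 and 319 CPM in DMSO and 178, 170.0, 428 and 271 CPM with alectinib. Lamc1 in EA3 measured 312, 179.6, 728 and 369 CPM in DMSO and 323, 325, 250.0 and 417 CPM with alectinib. Its log2 fold change was 0.25 (95% interval -0.34 to 0.84) in EA1, 0.07 (95% interval -0.53 to 0.66) in EA2 and -0.10 (95% interval -0.71 to 0.52) in EA3, at levels of 54.4 ± 15.9, 29.2 ± 9.19 and 48.0 ± 28.4 CPM per kilobase in DMSO.

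The days differ in length of culture, so it was also tested whether the response to alectinib grew or shrank for each doubling of the days. In edgeR's test 0 members passed the threshold in EA1, EA2 or EA3 (0.0210%, 0% and 0.0491% of all genes did), with 3, 6 and 5 of the 27 members at an unadjusted p under 0.05. DESeq2 called 1 member in EA1 (Lamb3) and 1 in EA3 (Itgb4). Levels of single members within DMSO cultures changed with time in EA1 and EA3. In EA1, 2 of the 27 were called, where 3.64% of all genes were called (1.98% as rising). Lamb3 rose per doubling of days by 1.14 ± 0.24 on the log2 scale (SE, adjusted p = 0.0222). The other was Itga11, tested only because of its alectinib level, with 4.52 CPM on day 5 and 0.105 to 0.534 CPM before. In EA3, Itga5 rose by 0.65 ± 0.14, Itgb3 by 0.93 ± 0.26, Lama5 by 0.77 ± 0.23 and Lamb2 by 0.65 ± 0.18 per doubling (adjusted p = 0.011, 0.0285, 0.0391 and 0.0324). These calls are 14.8% of the 27 members, near the 11.3% of all genes that were called (5.69% as rising). Neither EA2 in DMSO (0% of all genes) nor the alectinib cultures (0%, 0.0631% and 0.491% of all genes in EA1, EA2 and EA3) had a member past the threshold for a change over days, with 1 member in EA2 DMSO and 3, 6 and 6 members in the alectinib cultures at an unadjusted p under 0.05.

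Genes whose proteins work with integrins and laminins were described as 4 lists, written from general knowledge. Of 28 cytoplasmic partners, all tested, 11, 11 and 12 rose and 4, 3 and 3 fell in EA1, EA2 and EA3, with median log2 fold changes of 0.41, 0.28 and 0.59. Of all genes tested, 19.0%, 13.0% and 17.5% rose and 14.6%, 11.3% and 15.1% fell, with 5.78% higher and 4.23% lower in all 3 lines, and several counts of these lists lie near such shares. In all 3 lines 7 of them rose, among them Parva, Actn1 and Tns3, which couple integrin tails to actin, and 1, Tns4, fell. Parva rose by 1.07, 0.99 and 1.22 and Tns4, a tensin without the actin-binding part, changed by -1.61, -4.39 and -1.95 on the log2 scale in EA1, EA2 and EA3. Of 14 tested basement membrane partners of laminins, 6, 5 and 9 rose and 0, 1 and 1 fell (median 0.82, 0.47 and 0.82). Hspg2, the proteoglycan perlecan, rose by 0.89, 1.30 and 1.60, and Ntn4, a netrin that binds laminin, by 2.67, 1.70 and 1.45. Of 15 tested ligands of integrins other than laminins, 10, 6 and 10 rose and 1, 1 and 2 fell (median 0.78, 0.71 and 1.20). Thbs1, thrombospondin, rose by 4.54, 3.45 and 3.16, and Spp1, osteopontin, a ligand of Itgav and Itga9 integrins, changed by -3.12, -4.78 and -3.12, from means of 10913 to 1219 CPM in EA1. Of 7 tested hemidesmosome and tetraspanin partners, 1, 2 and 2 rose and 0, 2 and 1 fell (median 0.17, 0.41 and 0.17), and Cd81 alone rose in all 3 lines. All genes tested had medians of 0.06, -0.00 and 0.07 in the 3 lines.

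The 9 members not tested were Itga4, Itga8, Itgad, Itgal, Itgam, Itgax, Lama1, Lama4 and Lamc3, which reached between 1 and 19 counts in their highest library. Lamc3, a gamma chain of few tissues, had 3 counts over the 4 DMSO libraries and 47 over the 4 alectinib libraries of EA3, a ratio per total count of 13.1 (exact 95% counting interval 4.22 to 65.9). Lama4, the alpha chain of vessel walls and fat, had 1 count in DMSO and 15 with alectinib in EA1 (ratio 13.3, interval 2.05 to 561) and 11 and 2 counts in EA2 (0.214, interval 0.0231 to 0.981). Itga8 had 13 and 3 counts in EA2 (0.272, interval 0.0497 to 0.989). Single libraries of Itga8 and of Lama4 in EA2 overlapped between treatments. The interval held a ratio of 1 for Itga4 (0.497 to 210) and Itgad (0.952 to 315) in EA1. It did so too for Itga8 (0.00425 to 2.11) and Itgam (0.078 to 2.58) in EA3. These ratios have no replicate error and no test.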

How the data were processed

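Reads of 2x151 bases from polyA-selected, stranded libraries were, per the labels and methods of the study, checked with FastQC, trimmed with bbduk and mapped to mm10 with STAR, whose internal counter gave the raw counts per gene that the authors deposited. The annotation release and the strand setting of the counter are not given in the sources used here. On 24 lines a date number stands in place of a gene symbol (0.129% to 0.201% of the counts of a library), and these lines were left out. All 55391 gene symbols matched the GENCODE annotation of the primary assembly of this build (release M21), which gave exon lengths and positions.

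The tests were made with edgeR 4.0.16 in R 4.3.3 (TMM factors, filterByExpr by line and treatment, robust quasi-likelihood test). DESeq2 1.42.0 served for alternatives, and tables and plots used Python 3.11.15 with scipy 1.17.1 and matplotlib 3.10.9. A single fit held the 24 libraries from days 1, 2, 3 and 5, with 12 line-by-day blocks and an alectinib effect for every line. The time label pairs the DMSO and alectinib libraries of a line and day, whose deviations from their group means correlated between -0.300 and 0.549. DMSO levels of the lines were compared in 12 libraries with the day as a block. Adjusted p-values follow Benjamini and Hochberg over all genes tested, with a threshold of 0.05. Daily ratios used a prior count of 2 and ratios between genes a pseudocount of 0.5 counts, and 3 counts was taken as the floor. Intervals are at 95%, and those on counts cover counting error only.

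Values in every library were given for members called in a line at a log2 fold change of 1 or more, called between lines, called between DMSO lines at a log2 difference of at least 3, or among the 8 highest per length, which takes 24 of the 36. For some groups near the floor, such as Itgb2 in EA1 with alectinib, only the range or the highest value was given. Of the 37 genes that the rule takes, 1 is not reported here and enters no count of members. From each partner list at most 4 genes called in all 3 lines were named, by the mean size of their change. The members and lists were chosen with earlier results of these data known. The fits were also run on simulated counts, but the outcome is not given here and no result rests on it. Alternatives were DESeq2's test and size factors, library size alone, other count filters, no block, each line alone, each day left out, all 26 libraries, a fold limit and a linear day. RNA from tumors was not used here.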

Additional observations from a re-analysis of the deposited data

Results flagged for a closer look

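Single days stood far from the other 3 of their group in 10 of the 128 groups of 4 tested with Dixon's criterion, where chance gives about 1 in 20. The high values were 7.19 CPM of Itga1 in EA2 with alectinib on day 5 (others 3.65 to 4.07), 4.52 CPM of Itga11 in EA1 DMSO on day 5 (0.105 to 0.534), 4.86 CPM of Itga2b in EA1 with alectinib on day 5 (1.93 to 2.38), 4.11 CPM of Itga9 in EA3 with alectinib on day 5 (0.831 to 1.13) and 3.95 CPM of Itgb2 in EA2 with alectinib on day 1 (0.899 to 1.41). Further high values were 21.1 CPM of Itgb7 in EA1 DMSO on day 3 (2.90 to 5.04), 3.65 CPM of Lama2 in EA2 with alectinib on day 1 (2.83 to 2.93), 2.33 CPM of Lama3 in EA1 DMSO on day 5 (0.214 to 0.523) and 567 CPM of Lamb2 in EA2 with alectinib on day 3 (291 to 329). The low value was 5.09 CPM of Itgb2 in EA3 with alectinib on day 5 (6.96 to 7.21).

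For 7 members the response to alectinib was not the same in EA1, EA2 and EA3 (edgeR's quasi-likelihood test, 2 degrees of freedom), with adjusted p = 0.0113 for Itga1, 0.00727 for Itga2, 0.0022 for Itga5, 0.0481 for Itga6, 0.0143 for Itgb2, 0.00213 for Itgb3 and 0.0439 for Lamb1.

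Outside the comparisons, the library labelled EA3 with alectinib on day 7 held 117.8 CPM of Itga11, above the 61.8 CPM that was the highest value of the 24 libraries, while the library labelled EA3 DMSO on day 7 held 0.126 CPM.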

How the results depend on the processing

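Of the 44 log2 fold changes of named members past the threshold (6 of them of Itga9, Itga11 and Lama2, whose calls are no support), 33 kept their call under every alternative that tested them, 11 lost it under at least 1, and 0 changed sign. Of the 28 not past it, 7 gained a call under at least 1, namely Itgb1 and Lamb3 in EA1, Itgb3 and Lama3 in EA2, and Itga1, Itgb4 and Lamb3 in EA3. With at least 10 counts in every library, which left 13 members (16 in DMSO), 8 were called in EA1, 8 in EA2, 4 between lines, and 7 between EA3 and EA1 and 8 between EA3 and EA2 in DMSO. Without the low count filter (36 members) 14 differed between lines, by DESeq2's test 12, and with all 26 libraries 4. The fit with all 26 libraries counts the pair that resembled EA2 as EA3, so that it is no check of EA3. DESeq2 called the slope over days for 1 member in EA1 and 1 in EA3. With each day left out in turn, 3 to 6 members differed between lines (3 without day 2 or day 3), and 0 to 1 had a slope in EA1 (Lamb3, without day 3). Without the replicate block, 15, 15 and 11 members were called in EA1, EA2 and EA3, 6 between lines, and 14, 9 and 12 between EA2 and EA1, EA3 and EA1, and EA3 and EA2 in DMSO. Without the block the between-line calls of Itga1 and Lamb1, the EA2 calls of Itga2b, Itga5 and Itga7 and the EA3 call of Itga7 were lost. Library size alone moved the median of all genes in EA3 from 0.067 to 0.182. Small values that were not called changed sign, and the cause was not tested. With library size alone, Itga2 (0.02), Lama3 (0.06), Lama5 (0.05) and Lamc1 (0.02) did so in EA3. With each day left out in turn, values ran from -0.38 to 0.13 for Itga2, -0.18 to 0.25 for Itgb3, -0.78 to 0.67 for Lama3, -0.31 to 0.17 for Lama5 and -0.47 to 0.34 for Lamc1 in EA3, from -0.08 to 0.06 for Itga3, -1.75 to 1.93 for Itga9 and -0.09 to 0.16 for Lamc1 in EA2, and from -1.80 to 0.14 for Lama2 and -1.41 to 0.17 for Lama3 in EA1. Without the replicate block, Itga3 (0.00) in EA2 and Itgb3 (-0.14) in EA3 did, and Itgb3 also without the filter (-0.00) and with all 26 libraries (-0.10). Members under about 3 counts in every library of both groups cannot show a difference at this depth.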

Other observations

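The libraries labelled EA3 on day 7 were set beside the ranges of the lines over days 1 to 5. Of the 27 tested members, the alectinib library lay inside the alectinib range of EA2 for 21, of EA1 for 3 and of EA3 for 3, and the DMSO library inside the DMSO range of EA2 for 12, of EA3 for 11 and of EA1 for 10. Itgb4, which separated EA2 from the other lines, measured 0.881 CPM in the DMSO and 0.849 CPM in the alectinib library. Itga6 measured 827 CPM and 10.9 CPM, Lamb1 1189 CPM and 43.0 CPM, and Lamb2 78.6 CPM and 338 CPM in the DMSO and alectinib libraries. Itgb7 measured 111 CPM and 5.09 CPM, Itgb5 125 CPM and 408 CPM, and Itgb8 6.42 CPM and 15.9 CPM. Itga2 measured 136 CPM in the DMSO library, above the highest EA2 value of 39.8 CPM, and 0.933 CPM in the alectinib library. These are values of single libraries without replicates.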
